A study of Mus musculus with 15 samples.

Results

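Yap1, Wwtr1 (the gene of TAZ), the 4 Tead genes, Amotl2 and Lats2 of the Hippo pathway were followed together with Birc2 and Birc3, the chromosomal neighbours of Yap1, across 4 mouse mammary tumour models. The genes were chosen by symbol, and all 10 were present among the 17271 genes of the deposited table. The data are RNA-seq values of 15 tumours, of which 8 belonged to the model 2208L, 4 to 2151R, 2 to 2225L and 1 to T11. All tumours were labelled p53-null, on the BALB/c strain, so every model lacks p53 and no group carries it. In 2151R, replicates 3 and 4 were titled NT, and the titles of replicates 1 and 2 carry other codes, whose meaning is not given in the sources used here. In 2208L, 4 samples were titled PBS (replicates 2 to 5), 3 were titled 3day_nt (replicates 6 to 8), and replicate 1 has a library name starting with ROSEN. The samples of 2225L were 1 with a CP library name (replicate 1) and 1 with a ROSEN library name (replicate 2), and every other library was named CP. The title of replicate 1 of 2225L also carries T-Vivo, which that of replicate 2 does not. The CP and ROSEN samples of 2225L thus differ in their titles by more than the library name. No title names a drug or an antibody, and the labels do not say whether the samples of a model came from separate animals, so p-values measure the spread between these samples only.

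In the Hippo pathway, the kinases STK3 and STK4 activate LATS1 and LATS2, which phosphorylate the coactivators YAP and TAZ and hold them in the cytoplasm. Unphosphorylated YAP and TAZ enter the nucleus and bind TEAD transcription factors, which carry the DNA-binding domain, and the target genes include Amotl2 and Lats2, which act back on YAP and TAZ. Birc2 and Birc3 encode the ubiquitin ligases cIAP1 and cIAP2, which act in NF-kappaB signalling downstream of TNF receptors, and the chromosome segment that holds them with Yap1 is amplified in a share of mouse tumours.

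Values are log2 expression relative to an unstated reference level of each gene, so they compare samples at a gene and do not rank genes. The table holds no counts, and the depth of the libraries is unknown. A gene was called different where the limma adjusted p (Benjamini-Hochberg over all 17271 genes) was under 0.05. A bulk value cannot tell fewer cells of a type from less RNA per cell. Trp53 ran from 0.09 to 0.29 in 2151R, was -0.01 in T11, 1.63 and -0.18 in 2225L, and ran from -0.29 to 0.16 in 2208L, and a centred value does not show whether the gene is expressed. The 7 epithelial markers (Epcam, Cdh1, Cldn3, Cldn4, Cldn7, Krt8, Krt18) had a mean value from -5.89 to -4.74 in 2151R and -9.03 in T11, against 0.944 to 1.001 in 2225L and 0.66 to 1.43 in 2208L, and all 7 were called lower in 2151R than in 2208L. Over all genes, 22.7 percent were called lower and 26.1 percent higher in that comparison. Called higher in 2151R were 6 of 6 endothelial, 5 of 6 macrophage, 3 of 6 fibroblast, 2 of 5 T cell and 1 of 4 adipocyte markers. The 8 skeletal muscle markers had a mean value of 7.36 in replicate 3 of 2151R and of 10.33 and 9.78 in replicates 6 and 8 of 2208L, and from -3.47 to 2.87 in the other samples. The part of these cell type markers in the differences below was not tested.

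RNA levels of several of the 10 genes differed between the replicated models, in directions that varied by gene. Activity of YAP and TAZ was not measured. The tumours of 2151R were low in Yap1 and Tead3 and high in Wwtr1, Tead1 and Lats2, and those of 2225L, set against 2151R, were high in Yap1 and Tead3 and low in the other 3. Against 2208L, 7 of the 10 genes were called in 2151R (3 higher, 4 lower), where 48.8 percent of all genes were called, and 6 of the 10 in 2225L (1 higher, 5 lower), where 32.9 percent were. Between 2225L and 2151R, 7 of the 10 were called (2 higher, 5 lower), beside 48.6 percent of all genes. The comparisons ask how the models differ at these genes, and the 3 share samples and are not independent of each other. The ranges of the compared groups did not overlap at 5, 5 and 7 of the 10 genes, beside 38.8, 31.7 and 62.4 percent of all genes.

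**Figure D1:**
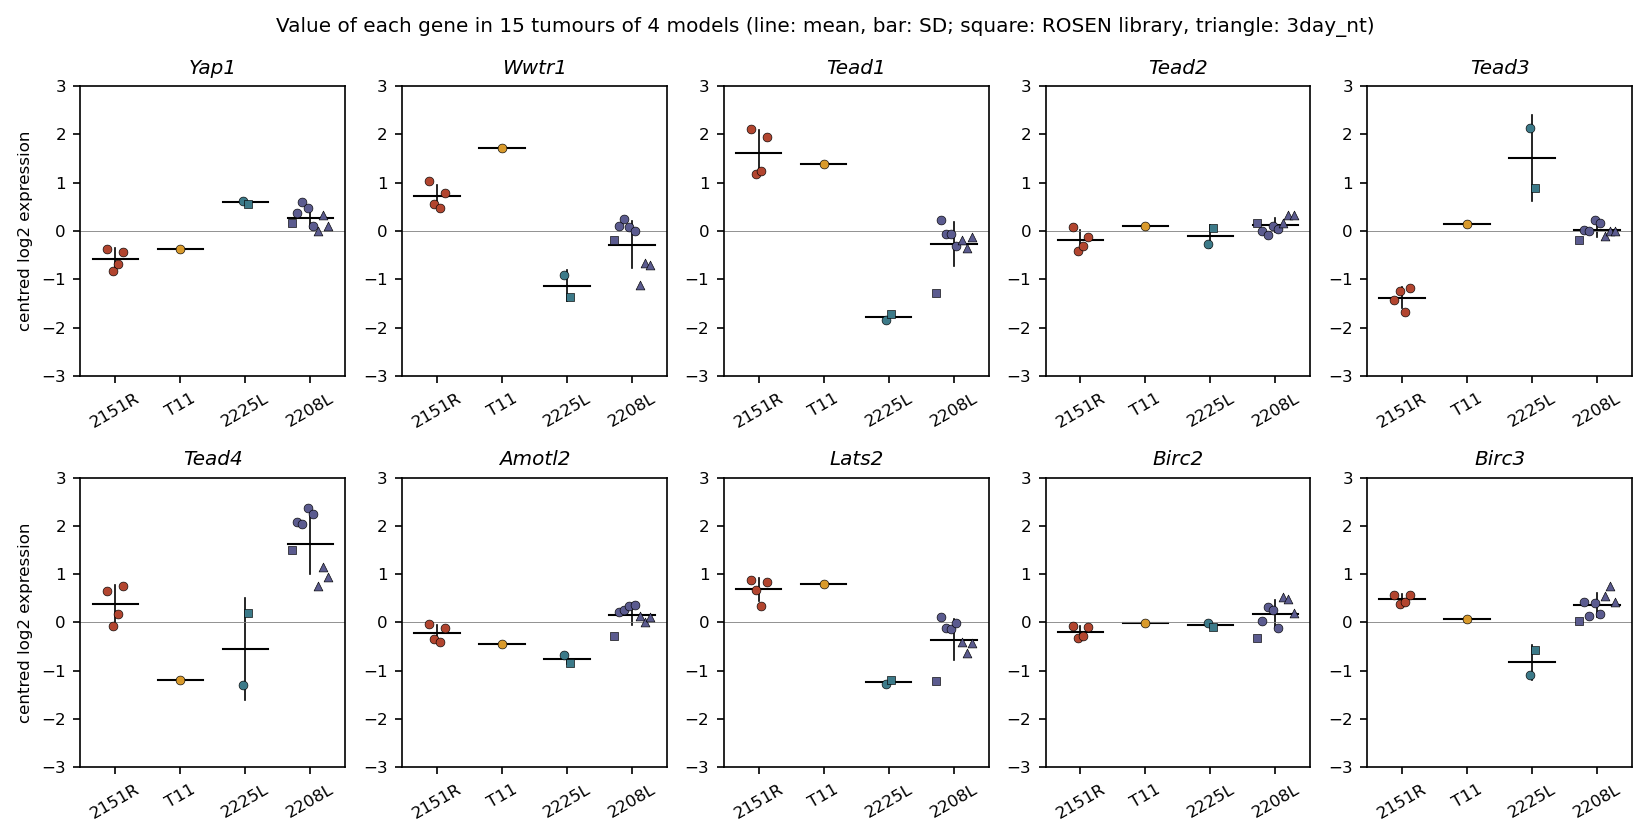
Value of each of the 10 genes (log2 relative to the reference level of the gene) in each of the 15 tumours, by model on the horizontal axis. The line is the model mean and the bar its SD, a square is a ROSEN library and a triangle a 3day_nt sample. The 4 samples of 2151R lie below all others but T11 at Yap1 (-0.84 to -0.36), and the samples of 2225L lie above all others at Tead3 (0.88 and 2.14).

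Yap1 was low in 2151R and T11 and high in 2225L. Its value was -0.36, -0.84, -0.68 and -0.43 in replicates 1 to 4 of 2151R, -0.38 in T11, and 0.63 and 0.56 in the CP and ROSEN samples of 2225L. In 2208L it ran from 0.00 to 0.60, with a median of 0.25. No sample of 2151R reached the lowest sample of 2208L, while the samples of 2225L lay at the upper end of 2208L. Yap1 fell by 0.85 on the log2 scale between 2208L (0.27 ± 0.21, SD, n = 8) and 2151R (-0.58 ± 0.22, SD, n = 4), with an SE of 0.144 (limma adjusted p 0.000295). Yap1 was higher in 2225L than in 2151R by 1.17 (SE 0.204, limma adjusted p 0.000415). Between 2225L and 2208L the difference of 0.32 (SE 0.186) was not called (limma adjusted p 0.206). The call between 2151R and 2208L held in all 23 alternatives that tested it (-0.97 to -0.72).

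Wwtr1, which encodes the second coactivator TAZ, had the means of the 3 replicated models in the opposite order to Yap1. It was 1.03, 0.55, 0.49 and 0.80 in replicates 1 to 4 of 2151R, 1.73 in T11, and -0.90 and -1.36 in 2225L. The 8 samples of 2208L ran from -1.11 to 0.25 (median -0.10). T11 was the highest of all samples, every sample of 2151R lay above every sample of 2208L, and the 2225L samples were low but overlapped 2208L. Wwtr1 was higher in 2151R (0.72 ± 0.25, SD, n = 4) than in 2208L (-0.28 ± 0.49, SD, n = 8) by 0.996 (SE 0.253, limma adjusted p 0.00537). Against 2151R, the mean of 2225L was lower (-1.85, SE 0.358, limma adjusted p 0.000912). The difference of -0.85 between 2225L and 2208L was not called (SE 0.327, limma adjusted p 0.0612). It was called with the PBS samples as the reference (-1.24), without the 3 libraries high in muscle genes (-1.06) and without replicate 6 of 2208L. Between 2151R and 2208L, the difference was 0.61 with the PBS and 1.54 with the 3day_nt samples as the reference, both called, and the call was lost with only samples titled NT, nt or PBS besides T11 and 2225L (0.93).

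The Tead genes encode the DNA-binding partners of YAP and TAZ, and the 4 paralogs moved in different directions. Tead1 was 2.11, 1.19, 1.25 and 1.94 in 2151R, 1.39 in T11, and -1.84 and -1.71 in 2225L. In 2208L it was -1.29 in the ROSEN library and ran from -0.35 to 0.23 in the other 7 samples, with a median over all 8 of -0.16. The ranges of 2151R, 2208L and 2225L did not overlap, with 2151R highest and 2225L lowest. Tead1 was higher in 2151R than in 2208L by 1.89 (SE 0.26, limma adjusted p 4.82e-05). In 2225L it was lower than in 2208L (-1.502, SE 0.335, limma adjusted p 0.00405) and than in 2151R (-3.39, SE 0.367, limma adjusted p 7.23e-06). With sample weights the call between 2225L and 2208L was lost (-1.67). Within the CP libraries the 2225L sample lay -1.71 from the mean of the 7 samples of 2208L, and within the ROSEN libraries, 1 of each model, the difference was -0.42.

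Tead3 had the reverse order, with 2225L highest and 2151R lowest. It was -1.42, -1.25, -1.67 and -1.19 in 2151R, 0.14 in T11, and 2.14 and 0.88 in the CP and ROSEN samples of 2225L. The 8 samples of 2208L ran from -0.19 to 0.24 (median 0.01), so the 3 models did not overlap and T11 lay within the range of 2208L. Tead3 fell by 1.40 between 2208L (0.02 ± 0.14, SD, n = 8) and 2151R (-1.38 ± 0.22, SD, n = 4), with an SE of 0.195 (limma adjusted p 5.41e-05). It was higher in 2225L (1.51 ± 0.89, SD, n = 2) than in 2208L by 1.49 (SE 0.252, limma adjusted p 0.000621). Without the CP sample of 2225L this difference was 0.87 and stayed called. Tead3 was higher in 2225L than in 2151R by 2.90 (SE 0.276, limma adjusted p 2.29e-06).

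Tead4 was high in 2208L and varied within it. In 2208L it was 2.08, 2.03, 2.36 and 2.25 in the PBS samples, 0.74, 1.15 and 0.95 in the 3day_nt samples and 1.505 in the ROSEN library. It was 0.65, -0.07, 0.18 and 0.76 in 2151R, -1.19 in T11, and -1.30 and 0.19 in the CP and ROSEN samples of 2225L. The PBS samples were the highest of the 15, the 3day_nt samples reached down to the 2151R range, and the 2225L samples lay far apart. Tead4 was called lower in 2151R than in 2208L (-1.26, SE 0.364, limma adjusted p 0.0117), although one pair of samples overlapped. That call was lost against the 3day_nt samples alone (-0.57) and with only the samples titled NT, nt or PBS besides T11 and 2225L (-1.18). Tead4 was called lower in 2225L than in 2208L (-2.19, SE 0.47, limma adjusted p 0.00319), but not without the CP sample of 2225L (-1.44). Between 2225L and 2151R the difference of -0.93 (SE 0.515) was not called (limma adjusted p 0.151), and without the ROSEN sample of 2225L it was -1.68 and called.

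Tead2 differed least of the paralogs. It was 0.09, -0.40, -0.30 and -0.13 in 2151R, 0.10 in T11 and -0.28 and 0.06 in 2225L, and ran from -0.08 to 0.32 in 2208L (median 0.13). The ranges of 2151R, 2225L and 2208L overlapped, and Tead2 was not called in any of the 3 model comparisons. The difference between 2151R and 2208L was -0.32 (SE 0.132, limma adjusted p 0.0618), and it was called in 6 of 23 alternatives, among them centring each sample on its median (-0.38).

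**Figure D2:**
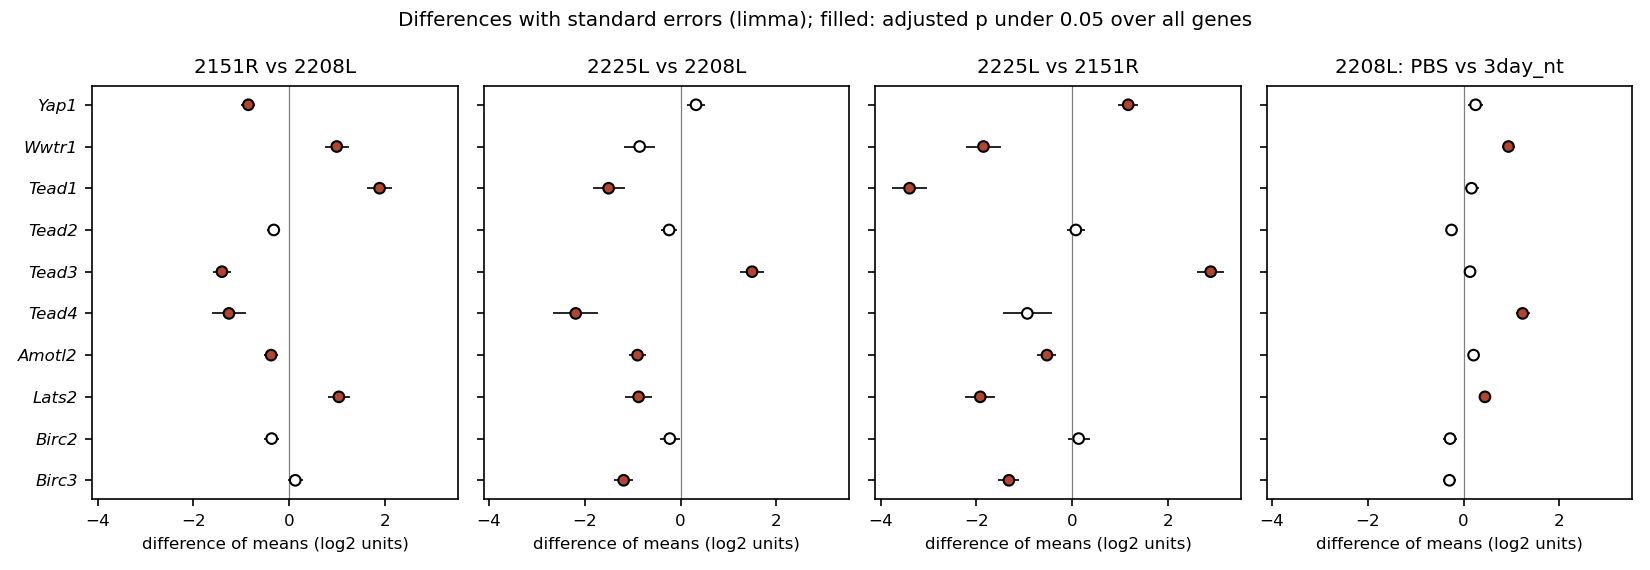
Difference of group means (log2 units, horizontal axis) with its SE for each of the 10 genes in 4 comparisons, where filled points have a limma adjusted p under 0.05. Tead1 and Tead3 lie on opposite sides of 0 in all 3 model comparisons (1.89 and -1.40 for 2151R against 2208L).

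Lats2 encodes a kinase that inhibits YAP and TAZ, and its gene is itself one of their targets. Its value was 0.89, 0.68, 0.34 and 0.83 in 2151R, 0.79 in T11 and -1.27 and -1.19 in 2225L. In 2208L it was -1.22 in the ROSEN library and ran up to 0.10 in the other samples, with a median of -0.26. All samples of 2151R lay above all of 2208L, while the ROSEN library of 2208L lay beside the 2225L samples. Lats2 was higher in 2151R than in 2208L by 1.04 (SE 0.222, limma adjusted p 0.00169) and lower in 2225L than in 2151R (-1.92, SE 0.314, limma adjusted p 0.00026). It was called lower in 2225L than in 2208L (-0.88, SE 0.287, limma adjusted p 0.032). That call was lost in 6 alternatives, among them the library prefix as a covariate (-0.65), and also without replicate 1 or 2 of 2225L or replicate 3 or 4 of 2208L (-0.9997 to -0.8102 over all samples left out in turn). Within the ROSEN libraries the difference was 0.03.

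Amotl2 encodes a junction scaffold that holds YAP in the cytoplasm, and it is a target gene of YAP. It was -0.03, -0.35, -0.41 and -0.12 in 2151R, -0.45 in T11, and -0.67 and -0.83 in 2225L. In 2208L it ran from -0.28 in the ROSEN library to 0.36, with a median of 0.18. The samples of 2225L were the lowest of the 15, and 2151R overlapped 2208L through the ROSEN library. Amotl2 was called lower in 2225L than in 2208L (-0.90, SE 0.181, limma adjusted p 0.00212), and this call held in all 21 alternatives that tested it (-1.05 to -0.72). It was also called lower in 2151R than in 2208L (-0.37, SE 0.14, limma adjusted p 0.0409) and in 2225L than in 2151R (-0.52, SE 0.198, limma adjusted p 0.0428), both near the threshold. The call between 2151R and 2208L was lost without the libraries high in muscle genes (-0.32), in 2 further choices of samples, and when any one of 9 samples was left out, namely replicates 2, 3 and 4 of 2151R and 2, 3, 4, 5, 6 and 8 of 2208L (-0.44 to -0.31). The call between 2225L and 2151R was lost in 7 alternatives, among them quantile normalization (-0.24), and without either sample of 2225L or replicate 1 or 4 of 2151R (-0.61 to -0.44).

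TEAD proteins bind the motif GGAATG, and it was searched on both strands from 250 bases before to 50 bases after each RefSeq transcript start (GRCm38.p6). A promoter was given for 8 of the 10 genes, and 5 of the 8 (62.5 percent) held at least 1 match, beside 16.6 percent of all 27025 genes with a promoter and 14.7 percent of all 32851 promoters. Yap1, Wwtr1, Tead3, Amotl2 and Lats2 held a match, and Birc2, Birc3 and Tead2 did not. Of the 22 target genes used below, 15 had a promoter and 7 of these (46.7 percent) held a match. The stretches of 30 bases around 1 match are shown for the coactivator genes, for Tead3 and the feedback target Amotl2, and for Ccn1 and Ankrd1, the classical targets, with the motif in capitals and read 5′ to 3′ on the strand that spells it. A match describes these letters and is not evidence of binding.
Yap1: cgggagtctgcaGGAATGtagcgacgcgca
Wwtr1: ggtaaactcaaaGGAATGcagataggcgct
Tead3: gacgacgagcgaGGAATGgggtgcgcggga
Amotl2: gctgctatgccaGGAATGtgagagtttcag
Ccn1: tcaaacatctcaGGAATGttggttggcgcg
Ankrd1: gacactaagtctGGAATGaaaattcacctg
The Yap1 stretch lies at chr9:8004720-8004749 on the minus strand, with the match starting at position -141 from the transcript start. Those of Wwtr1 (chr3:57576029-57576058, position -136) and Tead3 (chr17:28350970-28350999, position -182) also lie on the minus strand. The Amotl2 stretch (chr9:102717727-102717756) lies on the minus strand, opposite to the gene, at position -65. The Ccn1 stretch (chr3:145650071-145650100) lies on the plus strand, opposite to the gene, at position -103, and that of Ankrd1 (chr19:36119950-36119979) on the minus strand at position -123.

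A list of 22 YAP/TAZ target genes in cancer, which includes Amotl2 and Lats2, was split in 2151R and lower in 2225L. In 2151R against 2208L, 8 of the 22 were called higher and 7 lower, beside 26.1 and 22.7 percent of all genes, with a median difference of 0.20 (0.10 over all genes). In 2225L against 2208L, 1 was called higher and 10 lower, beside 15.6 and 17.3 percent, with a median of -0.77 (-0.04 over all genes). In 2225L against 2151R, 2 were called higher and 11 lower, beside 22.8 and 25.8 percent, with a median of -1.09 (-0.10 over all genes). The directions of these counts were the same after centring or quantile normalization, except that 2 were then higher in 2225L than in 2208L with quantile normalization. Without replicate 2 of 2225L, the counts of higher targets rose from 1 to 2 against 2208L and from 2 to 4 against 2151R.

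Ccn1 and Ccn2 encode secreted matricellular proteins and are the targets most often used as a readout of YAP. Ccn1 was 0.00, 0.31, -0.25 and 0.38 in 2151R, -0.17 in T11 and -1.03 and -2.62 in 2225L. Ccn2 was -2.17, -0.51, -2.28 and -1.29 in 2151R, -0.34 in T11 and 0.49 and -1.52 in 2225L. In 2208L, Ccn1 ran from -0.20 to 1.17 and Ccn2 from 0.46 to 1.98, so the 2225L samples were the lowest at Ccn1 and the 2151R samples lay below 2208L at Ccn2. Ccn1 was called lower in 2225L than in 2208L (-2.40, limma adjusted p 0.000332), and the difference of -0.47 between 2151R and 2208L was not called (limma adjusted p 0.199). Ccn2 was called lower in 2151R than in 2208L (-2.71, limma adjusted p 0.000145). It was also called lower in 2225L than in 2208L (-1.67, limma adjusted p 0.0321), but it was -0.66 and not called without the ROSEN sample of 2225L, and not called without replicate 3 of 2208L.

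Among the targets called higher in 2151R than in 2208L were Axl, a receptor tyrosine kinase (difference 2.49, limma adjusted p 6.81e-07), Asap1, a regulator of ARF GTPases (2.52, limma adjusted p 2.79e-06), Myof, a membrane repair protein (2.43, limma adjusted p 5.16e-05), Dock5 (1.52) and the transcription factor Foxf2 (1.98). Axl was 2.36, 1.90, 1.86 and 2.12 in 2151R and 2.598 in T11, -1.57 and -0.50 in 2225L, and ran from -0.80 to 0.00 in 2208L. So T11 and 2151R were high in Axl and Asap1, in which T11 was 1.34 and 2151R ran from 0.54 to 1.24, while no sample of 2225L or 2208L was above 0.00 at Axl. Nt5e, the ecto-enzyme CD73, was called lower in 2151R than in 2208L (-2.11, limma adjusted p 0.00072). F3, the coagulation factor known as tissue factor, was called lower in 2225L than in 2208L (-3.16, limma adjusted p 7.71e-06) and than in 2151R (-2.52). In 2225L it was -2.602 and -2.196, against 0.29 to 1.27 in 2208L.

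Ankrd1, a nuclear ankyrin repeat protein, was -2.42 and -3.75 in 2225L, from -1.02 to 0.47 in 2151R, from -1.34 to 1.22 in 2208L and 4.35 in T11. It was called lower in 2225L than in 2208L (-2.82, limma adjusted p 0.00128), and T11 lay above every other sample. Foxf2 and Nt5e were called lower in 2225L than in 2208L (-3.18 and -2.41), but without the ROSEN sample of 2225L the differences were -1.37 and -1.11 and not called. The Myof call (-1.82) was also lost without that sample (-1.29). The target called higher in 2225L than in 2208L was Fjx1, a Golgi protein (1.98, limma adjusted p 0.000108), and those called higher in 2225L than in 2151R were Nuak2 (1.58), a kinase, and Tgfb2 (1.71), a growth factor. Fjx1, Nuak2 and Tgfb2 were named after their values were seen. The CP and ROSEN samples of 2225L were at least 1 log2 unit apart at 12 of the 22 targets and at 2 of the 10 genes followed here, beside 34.1 percent of all genes.

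**Figure D3:**
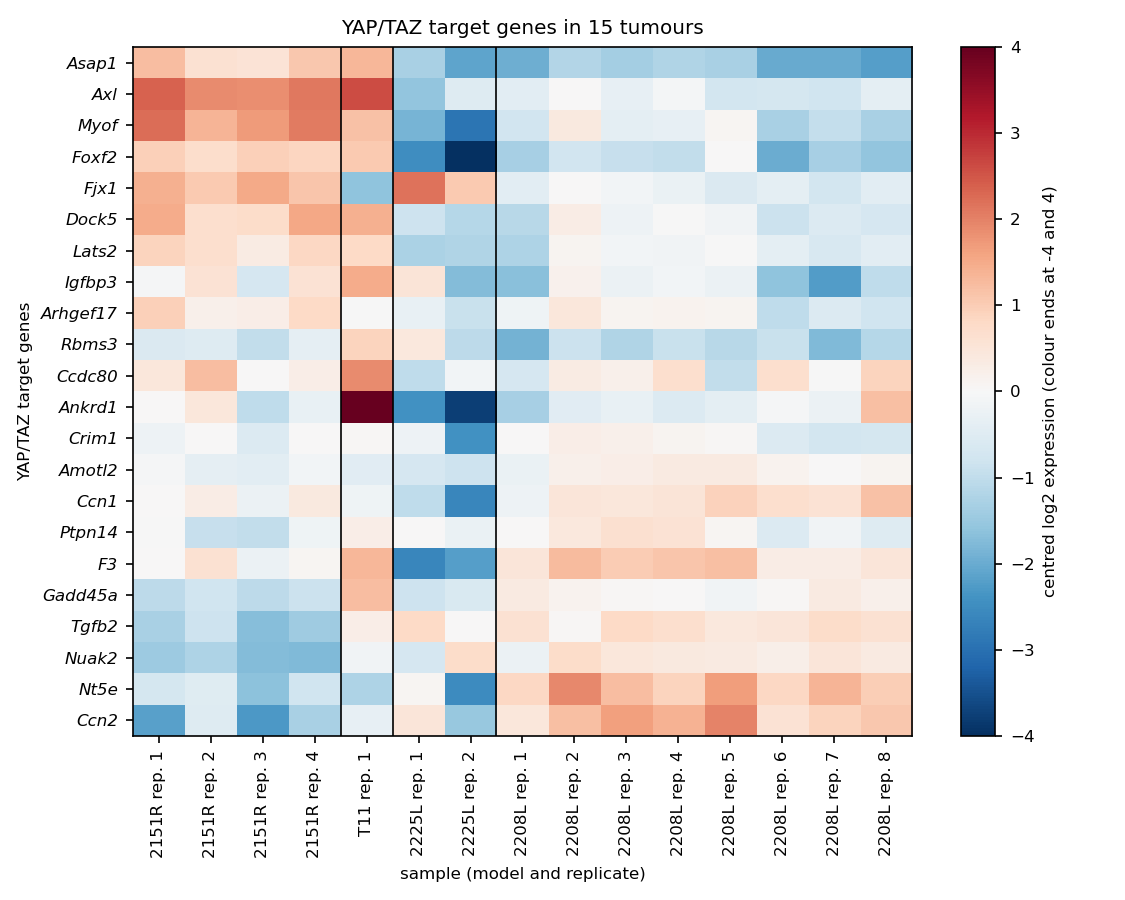
Values of the YAP/TAZ target genes (log2 relative to the reference level of each gene, colour scale) in the 15 tumours, grouped by model. Ankrd1 is highest in T11 (4.35), and Axl is high in 2151R (1.86 to 2.36) and T11 (2.598).

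Of 33 other genes of the pathway (kinases, scaffolds and TEAD cofactors), 32 were in the table. In 2151R against 2208L, 11 were called higher and 9 lower, where 26.1 and 22.7 percent of all genes were. In 2225L against 2208L, 4 were called higher and 8 lower, beside 15.6 and 17.3 percent, and in 2225L against 2151R 6 and 11, beside 22.8 and 25.8 percent. Single samples moved these counts by over 1.5 times. The 11 ranged from 6 to 11 over the samples left out in turn (replicates 1 and 4 of 2151R), the 8 from 4 to 9 (replicate 2 of 2225L and replicate 4 of 2208L), and the 6 from 3 to 5 (replicate 1 of 2225L). Wwc1, the scaffold KIBRA that promotes LATS activity, had the means of the 3 replicated models in the order of Yap1. It was -1.13, -1.70, -1.18 and -1.30 in 2151R, -2.88 in T11, 1.80 and 2.27 in 2225L, and ran from 0.00 to 1.01 in 2208L, with no overlap between the models. Wwc1 was called lower in 2151R (-1.93, limma adjusted p 3.52e-06) and higher in 2225L (1.43, limma adjusted p 0.000933), each against 2208L. Frmd6, an upstream FERM-domain activator of the pathway, and Taok3, a kinase of the family that activates STK3 and STK4, were called higher in 2151R than in 2208L (1.54 and 1.98, limma adjusted p 1.5e-05 and 1.24e-05). Both were called lower in 2225L than in 2151R (-2.27 and -2.17). Frmd6 was also called lower in 2225L than in 2208L (-0.73, limma adjusted p 0.0317), but not without the ROSEN sample of 2225L (-0.31) or without replicate 4 of 2208L. The 4 genes called higher in 2225L than in 2208L were Wwc1, Ajuba (1.42), Btrc (0.94) and Stk4 (0.72), the last 3 named after their values were seen. With quantile normalization 6 were called higher and 5 lower there, so the balance of directions of this list in 2225L depended on the scaling.

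Birc2, the gene of cIAP1, varied little. It was -0.07, -0.32, -0.28 and -0.10 in 2151R, -0.02 in T11, and -0.02 and -0.09 in 2225L. In 2208L it ran from -0.33 to 0.53, with a median of 0.22. The range of 2208L held the samples of every other model, and Birc2 was not called in any comparison. The difference between 2151R and 2208L was -0.36 (SE 0.163, limma adjusted p 0.0819). It was called after centring each sample (-0.42), with sample weights (-0.35), without replicate 1 of 2208L (-0.43) and in 3 further alternatives. The limma adjusted p was 0.446 between 2225L and 2208L (-0.22) and 0.644 between 2225L and 2151R (0.14).

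Birc3, the gene of cIAP2 and a target of NF-kappaB, was low in 2225L alone of the 3 replicated models. It was -1.09 and -0.57 in 2225L, 0.56, 0.39, 0.43 and 0.57 in 2151R and 0.07 in T11, and ran from 0.02 to 0.76 in 2208L (median 0.41). Both 2225L samples lay below all other samples, while 2151R and 2208L overlapped. Birc3 was called lower in 2225L than in 2208L (-1.19, SE 0.199, limma adjusted p 0.000593) and than in 2151R (-1.32, SE 0.218, limma adjusted p 0.000275), and the calls held in all 21 and all 15 alternatives that tested them (-1.45 to -0.93 and -1.58 to -1.04). The difference of 0.13 between 2151R and 2208L was not called (SE 0.154, limma adjusted p 0.509). Birc2 and Birc3 are close paralogs, and how reads that fit both were assigned is not given in the sources used here, so the split between them is uncertain.

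Yap1, Birc3 and Birc2 thus did not move as a unit. Against 2208L, 2151R had differences of -0.85 at Yap1, 0.13 at Birc3 and -0.36 at Birc2, and 2225L had 0.32, -1.19 and -0.22. The genes lie within 186 kb at chr9:7818226-8004638, with gaps of 10.3 kb between Birc2 and Birc3 and 58.8 kb between Birc3 and Yap1. Of the 40 genes within 20 places of Birc2 (19 before and 20 after, since 19 genes of the table precede it on the chromosome), 6 were called higher in 2151R than in 2208L and 11 were called lower, beside 26.1 and 22.7 percent of all genes. For 2225L the counts were 3 and 10 against 2208L, beside 15.6 and 17.3 percent, and 7 and 9 against 2151R, beside 22.8 and 25.8 percent. Relative to the median of all genes of each sample, the median of the neighbourhood ran from -0.19 to 0.01 in 2151R, was -0.04 in T11, -0.08 and -0.39 in 2225L, and ran from -0.13 to 0.35 in 2208L. The highest value, 0.35, was in replicate 2 of 2208L. The difference of these medians was -0.19 for 2151R and -0.33 for 2225L against 2208L, and 51.8 and 33.5 percent of the 15820 overlapping windows of this width along the genome had one as large.

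The neighbours of Birc2 went in different directions. On the far side of Yap1, the cilium genes Cfap300 and Cep126 were both called lower in 2151R than in 2208L (-0.75 and -2.09, limma adjusted p 0.0444 and 7.15e-05) and higher in 2225L than in 2151R (2.02 and 2.995). Cep126 ran from -1.87 to -1.15 in 2151R and was 1.771 and 1.498 in 2225L. On the other side, the matrix metalloproteinase genes Mmp10 and Mmp3 were called higher in 2151R than in 2208L (2.42 and 2.47, limma adjusted p 0.0171 and 0.018) and lower in 2225L than in 2151R (-6.55 and -4.52). Mmp10 ran from 2.91 to 3.91 in 2151R, was 0.82 in T11 and -1.71 and -4.81 in 2225L, and ran from -0.95 to 3.42 in 2208L. Neither Mmp8, a neutrophil collagenase, nor Tmem123, a membrane protein, was called in a model comparison. Pgr, the progesterone receptor, had the largest called difference of the neighbourhood between 2151R and 2208L (4.16, limma adjusted p 0.000309), and Gria4, a glutamate receptor subunit, followed (2.70, limma adjusted p 0.0302). Pgr ran from 1.35 to 3.48 in 2151R, was -3.76 in T11 and ran from -3.26 to 0.61 in 2208L. Pgr thus set T11 apart from 2151R, while at Yap1 T11 lay within the range of 2151R.

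**Figure D4:**
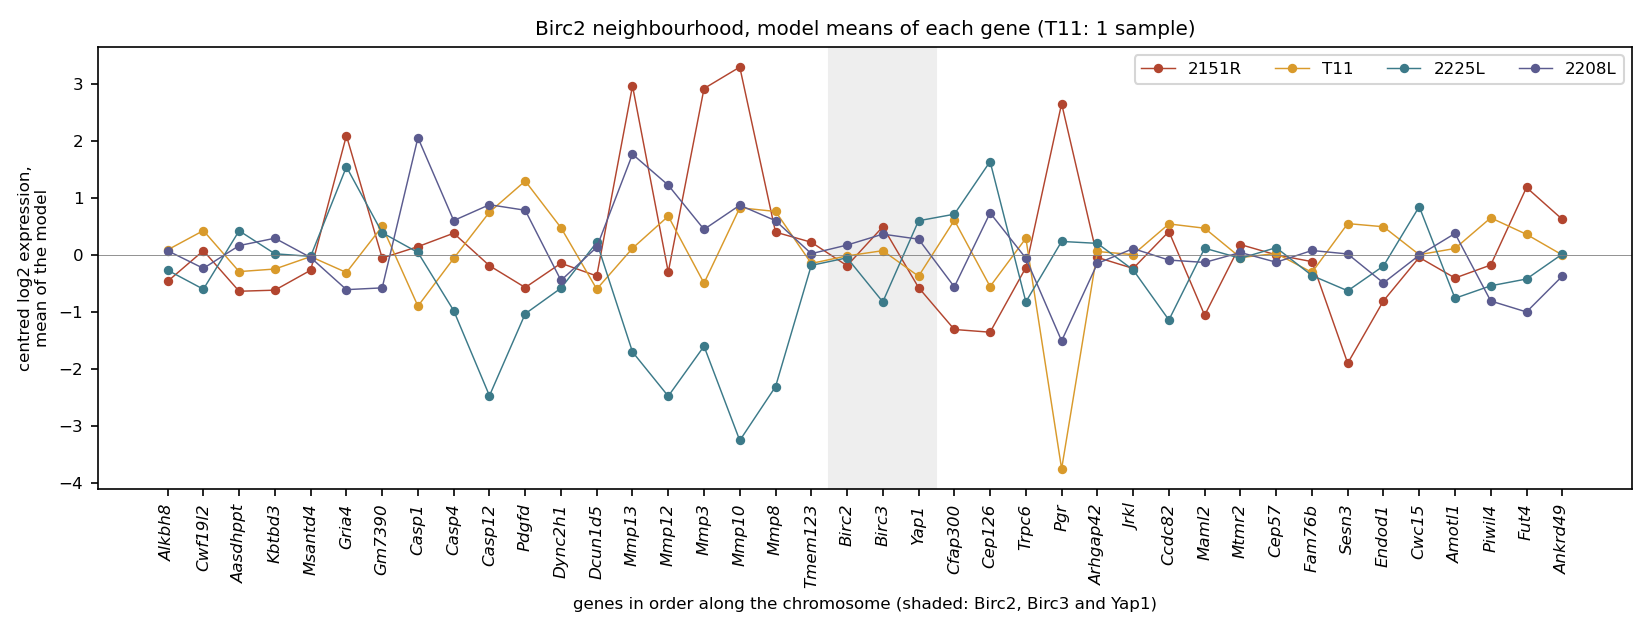
Model means (log2 relative to the reference level of each gene) of the genes around Birc2, in chromosome order on the horizontal axis. The means of Yap1, Birc2 and Birc3 lie between -0.83 (Birc3) and 0.60 (Yap1), both in 2225L.

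Other genes of inhibitors of apoptosis and their NF-kappaB partners, 14 of 15 listed, were called in one direction in each model comparison by limma. In 2151R against 2208L, 7 were called higher and 0 lower, where 26.1 and 22.7 percent of all genes were. In 2225L against 2208L, 0 were called higher and 6 lower, beside 15.6 and 17.3 percent, and in 2225L against 2151R 0 and 10, beside 22.8 and 25.8 percent. The 7 ranged from 4 to 8 over the samples left out in turn, and replicate 1 of 2151R moved them by over 1.5 times. In the direction with 0 calls, 0 genes had an unadjusted p under 0.05. The Naip genes, which encode sensors of bacterial proteins and are expressed in macrophages, made up 3 of the 7, 3 of the 6 and 4 of the 10, and they are near-identical copies whose reads may be split uncertainly. Naip1 was 5.21, 4.43, 4.18 and 4.59 in 2151R, 3.30 in T11, -2.73 and -2.67 in 2225L, and ran from -2.85 to 0.10 in 2208L. It was called higher in 2151R than in 2208L (5.88, limma adjusted p 2.51e-07). Naip2, Naip5 and Naip6 were called lower in 2225L than in 2208L (-2.37, -2.37 and -2.65), of which Naip6 was not called without the CP sample of 2225L (-1.57). Traf1, an adaptor that binds cIAP1 and cIAP2, ran from 1.81 to 2.07 in 2151R and from -1.93 to -0.27 in 2208L, was 1.45 in T11, and was called higher in 2151R (3.11, limma adjusted p 3.36e-06). Map3k14, the NF-kappaB-inducing kinase that cIAP1 and cIAP2 mark for degradation, was -1.76 and -2.14 in 2225L, where Birc3 was also lowest, and ran from -0.46 to 0.20 in 2208L (difference -1.82, limma adjusted p 2.28e-05). The macrophage markers had a mean from 0.53 to 0.87 in 2151R, -1.62 and -1.04 in 2225L and -1.70 to 0.64 in 2208L. Their part in this list was not tested.

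Tead3 lay in a stretch of chromosome 17 in which most genes were high in 2225L. Of the 41 genes from 20 places before to 20 after Tead3, 24 were called higher and 1 lower (Fkbp5, named after its values were seen) in 2225L than in 2208L, beside 15.6 and 17.3 percent of all genes, with a median difference of 1.10. Relative to each sample's median over all genes, the neighbourhood was at 1.26 in the CP and 0.28 in the ROSEN sample of 2225L, and from -0.59 to -0.21 in 2208L, from -0.41 to -0.25 in 2151R and at -0.19 in T11. Both samples of 2225L were above all others, the CP sample by far. The difference of 1.17 to 2208L was reached or passed in size by 78 of 15820 overlapping windows, and that of 0.98 between the CP and ROSEN samples of 2225L by 0.841 percent. The windows include this one and those that share genes with it, so these counts do not measure how rare such a stretch is. Neighbours called higher, named after their values were seen, included the p38 kinase genes Mapk13 (2.18, limma adjusted p 0.000119) and Mapk14 (1.05, limma adjusted p 0.00571), the ribosomal protein gene Rps10 (2.09, limma adjusted p 0.000203) and Spdef, an epithelial transcription factor (4.92, limma adjusted p 0.00033).

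A profile of the chromosome in runs of 20 genes was chosen after the data were seen. Each sample's median over all genes was subtracted first, and values were set relative to the mean of each gene over 2208L. The 4 runs from 20 genes before Tead3 to 59 after it (chr17:27235075-32530158) had medians of 1.84, 1.60, 1.31 and 1.85 in the CP sample of 2225L. In the ROSEN sample of 2225L they were 0.93, 0.29, 0.35 and 0.31. In the run that starts at Tead3, replicate 5 of 2208L was as high (0.295 against 0.290). In the run after it, T11 was higher (0.43 against 0.35). In the CP sample, the next runs on the left (0.55) and right (0.81) were lower than the 4 runs. In the ROSEN sample, runs further left, at offsets from -120 to -41 genes, were at 1.18, 0.73, 0.80 and 1.16, mostly above its runs at Tead3. The CP sample was at 0.77, 0.51, 0.79 and 0.60 in those left runs. In runs from 80 to 259 genes after Tead3 it ran from -1.03 to 0.81. Values above 2208L were thus not confined to the 4 runs. At Tead3 itself the CP and ROSEN samples were 1.26 apart. In 2151R, where Tead3 fell, 8 genes of the neighbourhood were called higher and 8 lower than in 2208L, beside 26.1 and 22.7 percent of all genes. The difference of medians was 0.091 there, and -0.022 and -0.038 with 10 and 40 genes on each side. DNA copy number was not measured in these files.

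The neighbourhood of Wwtr1 was low in 2225L in both samples. Of its 41 genes, 1 was called higher (Frem2, named after its values were seen) and 20 lower than in 2208L, beside 15.6 and 17.3 percent of all genes, with a median difference of -0.76, and Wwtr1 itself was not called. The median of the neighbourhood was -0.64 and -0.49 in the CP and ROSEN samples of 2225L and ran from -0.10 to 0.18 in 2208L. The difference of -0.61 was reached in size by 9.08 percent of windows. In 2151R, where Wwtr1 was higher, 11 of the 41 genes, Wwtr1 among them, were called higher and 9 lower, beside 26.1 and 22.7 percent. The neighbourhoods of Tead1 (3 higher and 7 lower of 41 in 2225L against 2208L) and of the other genes did not stand apart to that degree, and 42.7 percent of windows differed as much as that of Tead1.

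T11 is 1 sample, so its values have no replicate check. Against the range of the 8 samples of 2208L, T11 lay above at Wwtr1, Tead1 and Lats2, below at Yap1, Tead4 and Amotl2, and within at Birc2, Birc3, Tead2 and Tead3, which makes 6 of 10 outside beside 57.5 percent of all genes. Against 2151R it lay within the range at Yap1, Tead1 and Lats2, above at Wwtr1, Tead2, Tead3 and Birc2, and below at Birc3, Tead4 and Amotl2, with 70.7 percent of all genes outside. Tead3 set T11 (0.14) apart from 2151R (-1.67 to -1.19). Amot, a scaffold related to Amotl2 and named after its values were seen, was 3.03 in T11 and at most 0.31 in any other sample.

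Within 2208L, Wwtr1, Tead4 and Lats2 were higher in the 4 PBS samples than in the 3 titled 3day_nt. These were 3 of the 10 genes called, beside 34 percent of all genes, and the ranges did not overlap at 5 of the 10, beside 44.8 percent. Wwtr1 was 0.11, 0.25, 0.08 and 0.00 in the PBS samples and -1.11, -0.67 and -0.70 in the 3day_nt samples (difference 0.94, SE 0.145, limma adjusted p 0.00649). Tead4, with its values given above, differed by 1.23 (SE 0.144, limma adjusted p 0.00378). Lats2 was 0.10, -0.12, -0.13 and -0.01 against -0.40, -0.64 and -0.42 (difference 0.45, SE 0.118, limma adjusted p 0.029), and its call was lost without any one of replicates 2, 3, 6, 7 and 8. The groups did not overlap at these 3 genes, with every PBS sample above every 3day_nt sample. Yap1 was not called (0.25, limma adjusted p 0.238), nor were Tead1 (0.17, limma adjusted p 0.412) and Tead3 (0.14, limma adjusted p 0.356).

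In the same comparison 11 of the 22 targets were called higher and 0 lower, with a median difference of 0.41 (-0.05 over all genes), and 13 of the 32 pathway genes were called higher and 0 lower by limma, beside 17.4 and 16.5 percent of all genes. At an unadjusted p under 0.05, 0 targets and 1 pathway gene were lower. The called targets included Myof (1.12, limma adjusted p 0.0117), F3 (0.79, limma adjusted p 0.00534) and Ccn2 (0.70, limma adjusted p 0.0493), while Ccn1 was not called (-0.21, limma adjusted p 0.404). The calls of Ccn2 and Myof were lost without some single samples, Ccn2 without any one of replicates 3 to 8 and Myof without replicate 8. The inhibitor of apoptosis list had 4 higher (Xiap, Birc6, Naip2, Ripk1) and 4 lower (Birc5, Traf1, Nfkb2, Relb), and those other than Naip2 and Traf1 were named after their values were seen. With 1 sample left out in turn, the targets called ranged from 5 to 10, the pathway genes called higher from 2 to 19 and the inhibitor list from 1 to 7. The libraries that moved them by over 1.5 times were replicates 6 and 8 for all 3 lists, replicates 3 and 4 for the pathway and inhibitor lists, and replicate 2 for the pathway list. Of the cell type markers, 2 of 8 skeletal muscle, 2 of 7 epithelial and 1 of 5 T cell markers were called lower in the PBS samples. Over all genes, 16.5 percent were called lower. Of the macrophage, endothelial, fibroblast and adipocyte markers, 0 were called in either direction. The epithelial mean ran from 0.66 to 0.79 in the PBS and from 0.85 to 1.11 in the 3day_nt samples, and the part of these markers was not tested. These calls were lost when the samples high in muscle markers were left out, which also leaves fewer samples. Without replicates 6 and 8 of 2208L, which leaves 1 sample titled 3day_nt that is assumed to vary like the others, 0 of the 10 genes were called by limma, and 76 genes were called higher and 22 lower of all 17271. Of the 10 genes, 3 had an unadjusted p under 0.05 there. Wwtr1 then differed by 0.78, Tead4 by 1.03 and Lats2 by 0.60, and 1 target and 0 of the pathway genes were called (7 and 5 higher at an unadjusted p under 0.05).

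The genes nearest in pattern to Yap1, Wwtr1 and Birc2 over the 15 samples were ranked by the root mean square difference after centring each gene on its mean. For Yap1 (root mean square of 0.462 about its own mean) these were Rmnd5a (0.135), Tprn (0.167) and Jade3 (0.175). Rmnd5a had a mean of -0.44 in 2151R and 0.70 in 2225L, near the -0.58 and 0.60 of Yap1, and none of the 3 lies on the chromosome of Yap1. For Wwtr1 (0.824 about its mean) they were Rasal2 (0.217), Zcchc14 (0.224) and Bicral (0.227), all lowest in 2225L and highest in T11. For Birc2 (0.262 about its mean) they were Guf1 (0.133), Dynlt1a (0.14) and Asb13 (0.155). These differences are large beside the small spread of Birc2 itself, so the likeness is loose. Neither Birc3 nor Yap1 was among these 3.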

How the data were processed

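RNA from 15 p53-null BALB/c mouse mammary tumours was measured by RNA-seq of poly(A) libraries, per the labels' protocols. Values on the log2 scale came as 1 table deposited by the authors, which covers 17271 gene symbols, with the log2 scale and the median centring taken from the name of the table. The submitters' processing notes name STAR, Salmon and mm10, and their roles, versions and settings, the annotation, the offset and the normalization between samples are not given in the sources used here. The table holds no counts, so depth and counting error are unknown and precision rests on the spread between samples.

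Samples were grouped by the model in the titles, with replicate numbers in accession order that pair no samples. Tests used limma, version 3.58.1, under R, version 4.3.3, with lmFit and then eBayes with no trend, on the values as deposited, with 1 mean for each model over all 15 samples, and in a fit of 7 samples for PBS against 3day_nt within 2208L. P-values were adjusted by Benjamini-Hochberg over 17271 genes and called under 0.05. The fit was also run on simulated data with independent normal values and few changed genes. Those settings differ from these data, so the run is no check on the calls reported here. Library numbers of 2151R and of the PBS and 3day_nt samples of 2208L fall in separate ranges, so library range and group cannot be told apart. The titles of all PBS samples start with DH and those of all 3day_nt samples with KM, so these codes cannot be told apart from the group either.

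The genes and lists were chosen with earlier results of these data known. Named besides the 10 genes were list genes called in at least 2 of 3 model comparisons with a called difference above 2 log2 units, Ccn1 and Ccn2, the 4 nearest genes on each side of Birc2 and the 3 with the largest called difference between 2151R and 2208L among its neighbours, and the 3 genes most alike to Yap1, Birc2 and Wwtr1. Cell type markers and Trp53 were named as checks, and any other gene named outside this rule is marked as such. Neighbourhoods hold 20 genes on each side in RefSeq order (GRCm38.p6), in which 93.7 percent of genes were placed by symbol. Promoter sequences are from RefSeq for the same build. The lists of pathway and inhibitor of apoptosis genes each missed 1 gene, Vgll1 and Birc7. Alternatives changed the scaling, the gene filter, the eBayes settings, sample weights, the samples used, the library prefix as a covariate and the width of neighbourhoods.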

Additional observations from a re-analysis of the deposited data

Results flagged for a closer look

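Of 111 groups of 4 to 8 samples examined, 3 had a sample far from the others of its group, where chance gives about 1 in 20 (5.55 here). Tead1 was -1.29 in the ROSEN library of 2208L (replicate 1), and the other 7 samples of 2208L lay from -0.35 to 0.23. Ccn1 was 0.91 in replicate 5 of 2208L, and the other PBS samples lay from 0.47 to 0.52. The median of the neighbourhood of Amotl2 was -0.28 in replicate 2 of 2151R, and -0.20 in the other 3 samples of 2151R. With Tead1, replicate 1 was the lowest sample of 2208L at 6 of the 10 genes, the others being Lats2 (-1.22), Birc2 (-0.33), Amotl2 (-0.28), Tead3 (-0.19) and Birc3 (0.02), at which it was not far enough from the rest by the same measure. It is the only ROSEN library of its model, so prefix and sample cannot be told apart there.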

How the results depend on the processing

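No paired analysis was possible because no title pairs a sample with one of another group. Over the alternatives, 4 to 9 of the 10 genes were called for 2151R against 2208L (7 as reported), 4 to 7 for 2225L against 2208L (6), 4 to 7 for 2225L against 2151R (7) and 0 to 6 for PBS against 3day_nt within 2208L (3). Yap1, Tead1, Tead3 and Lats2 kept their calls for 2151R against 2208L in every alternative that tested them, as did Birc3, Tead3 and Amotl2 for 2225L against 2208L. The sign of 2 uncalled differences turned. Birc3 was -0.087 for 2151R against the 3day_nt samples, and Tead2 was -0.090 for 2225L against 2151R without replicate 2 of 2225L (-0.090 to 0.25 over all samples left out in turn).

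With only the samples titled NT, nt or PBS besides 2225L and T11, 2151R had 2658 genes called higher against 2208L and 4 of the 10 genes called. With only the genes of SD above the median, by construction fewer genes were tested, and the calls were 2505 higher and 2485 lower for 2151R against 2208L, 1470 and 1868 for 2225L against 2208L, 2509 and 2721 for 2225L against 2151R (with 4 of the 10 genes called, as low-variance members drop out), and 1516 and 1035 for PBS against 3day_nt. Sample weights gave 958 and 1200 for 2225L against 2208L, 2529 and 2723 for 2225L against 2151R, and 5938 and 5754 for PBS against 3day_nt, with 6 of the 10 genes called. Without the libraries high in muscle genes PBS against 3day_nt gave 76 higher, 22 lower and 0 of the 10 genes. Leaving out 1 sample moved that comparison between 1362 and 3988 higher and between 1017 and 3111 lower, and the lowest came without replicate 8 (replicate 6 gave 1723 and 1227, and replicates 2 and 3 gave 1844 and 1780 lower). Depth is unknown, so low values cannot be told from noise by counting error, and 2 samples of 2225L and 1 of T11 limit what can be said of these models. The causes were not tested except where stated.

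With 10 genes on each side, the neighbourhood differences were -0.53 (Birc2), -0.48 (Wwtr1), 0.10 (Tead4) and -0.37 (Amotl2) for 2225L against 2208L, and 0.13 (Tead4) and -0.24 (Amotl2) for 2151R against 2208L. With 40 on each side they were -0.12 (Tead1) and 0.84 (Tead3) for 2225L against 2208L, and -0.038 (Tead3), -0.13 (Tead4) and -0.38 (Amotl2) for 2151R against 2208L. The differences of 2225L at Birc2 (-0.33 with 20 genes) and Amotl2 (-0.21) were -0.18 and -0.12 with 40. For 2151R the sign depended on the width at Tead3 (-0.022 with 10, 0.091 with 20), at Tead4 (-0.024 with 20) and at Lats2 (-0.0038 with 10, 0.058 with 20).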

Other observations

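Vgll2, a TEAD cofactor of muscle that was named after its values were seen, was 7.13 and 6.67 in replicates 6 and 8 of 2208L, which were also high in skeletal muscle markers, and 1.68 in replicate 3 of 2151R. It was -0.59 in replicate 7, the third sample titled 3day_nt, and at most 1.31 elsewhere. Its difference between PBS and 3day_nt samples was not called by limma (-4.32, adjusted p 0.11), and the part of muscle RNA in it was not tested.

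The caspase genes Casp1, Casp4 and Casp12, which lie within 20 genes of Birc2 and take part in inflammatory cell death, were all called lower in 2225L than in 2208L (-2.01, -1.58 and -3.35, limma adjusted p 0.000472, 0.00458 and 3.93e-07). Casp12 was -2.96 and -1.99 in 2225L and ran from 0.60 to 1.15 in 2208L. Casp1 and Casp12 were also called lower in 2151R than in 2208L (-1.91 and -1.07). The macrophage markers had a mean of -1.62 and -1.04 in 2225L, from 0.53 to 0.87 in 2151R and from -1.70 to 0.64 in 2208L. Of the 6 macrophage markers, 5 were called higher in 2151R and 3 lower in 2225L, each against 2208L. Over all genes, 26.1 and 17.3 percent were. The part of these markers was not tested. These genes were singled out after their values were seen, and Casp1 and Casp4 are similar paralogs whose reads may be split uncertainly. Amotl1, a paralog of Amotl2 also singled out after its values were seen, lies in the same neighbourhood. It was called lower in 2225L than in 2208L (-1.14, limma adjusted p 0.0478), near the threshold. Its value was -0.123 in the CP and -1.41 in the ROSEN sample of 2225L, and ran from -0.118 to 0.985 in 2208L. The CP sample thus lay just below the lowest sample of 2208L.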
